A study of Mus musculus with 46 samples.

Results

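The promoter fragments of Cyp4f18 (P004), Olfr374 (P007), Hsh2d (P010) and Cib3 (P011) were followed through a reporter assay in mouse embryonic stem cells. They belong together as promoters of genes known from differentiated tissues. That rule uses no value measured here, but the choice was made with earlier results of these data known. All constructs of the Klf2 locus that carried P004, P007, P010 or P011 in either position and on either strand were taken, which gave 1960 of 19789 constructs. Of these, 407 held the Cyp4f18 fragment, 529 the Olfr374 fragment, 584 the Hsh2d fragment and 484 the Cib3 fragment, and 44 held a member in both positions. The locus was covered by 109 fragments of 450 bases, 23 of them promoters and 86 candidate cis-regulatory elements (cCREs).

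The cells were E14TG2a, a mouse embryonic stem cell line, untreated apart from culture in 2i and LIF, a medium that keeps such cells undifferentiated. Plasmids carrying 1 or 2 fragments upstream of a barcoded reporter were nucleofected, and RNA was taken 24 h later in 3 biological replicates. All constructs of the locus, together with those of the Nanog locus and negative controls, shared those transfections, so every comparison below is between constructs within the same 3 samples. A second experiment with 3 replicates of its own, the Downstream assay, carried the same fragments as inserts of promoter vectors. The assay reads what a short fragment does on a plasmid in this 1 cell line. The files hold no expression of the 4 genes, so the tissue restriction named in the choice was not checked.

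A promoter is the stretch of DNA around a transcription start where the general machinery assembles, and a cCRE such as an enhancer raises transcription from a promoter by bringing in activators. Cyp4f18 encodes a cytochrome P450 that hydroxylates leukotriene B4 in neutrophils. Olfr374 encodes an odorant receptor, a class of receptors used by olfactory sensory neurons. Hsh2d encodes an adaptor protein of blood cells with an SH2 domain. Cib3 encodes a calcium-binding protein of the family that includes the hair-cell protein Cib2.

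The tested fragments lie on chromosome 8 (mm10). In the deposited coordinates the Cyp4f18 fragment is chr8:72009551-72010001 and the Cib3 fragment chr8:72212762-72213212, both at genes on the minus strand, and the Olfr374 fragment is chr8:72106664-72107114 and the Hsh2d fragment chr8:72189296-72189746, both at genes on the plus strand. Each fragment runs from 372 to 376 bases before a RefSeq transcription start to 74 to 78 bases after it. The start inside the Cib3 fragment lies within the annotated gene, which extends to 72213086, so the window before that start is almost wholly within the gene and no sequence of it is printed. The Cyp4f18 fragment also overlaps Gm51535, a long noncoding RNA. The tables do not say whether + and - refer to the genome or to the gene. For Olfr374 and Hsh2d both readings give + as the sense orientation, and for Cyp4f18 and Cib3 the sense orientation is not settled.

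The sequences before the start are shown for the 3 fragments whose window lies wholly or mostly outside the annotated gene (for Cyp4f18, 208 of 250 bases), because Cyp4f18 stood apart from the others in several comparisons and these reference letters lie within the tested fragments. They are from RefSeq (GRCm38.p6), on the strand of the gene, with matches on either strand to 4 motifs in capitals. The motifs were TATAAA (the TATA box), CCAAT (the CCAAT box), GGGCGG (the GC box) and CACGTG (the E-box).

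Cyp4f18, chr8:72009669-72009876, minus strand: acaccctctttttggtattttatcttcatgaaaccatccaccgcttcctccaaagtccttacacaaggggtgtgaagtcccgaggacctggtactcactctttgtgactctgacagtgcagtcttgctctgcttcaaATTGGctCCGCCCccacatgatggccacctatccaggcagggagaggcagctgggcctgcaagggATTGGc
Olfr374, chr8:72106790-72107039, plus strand: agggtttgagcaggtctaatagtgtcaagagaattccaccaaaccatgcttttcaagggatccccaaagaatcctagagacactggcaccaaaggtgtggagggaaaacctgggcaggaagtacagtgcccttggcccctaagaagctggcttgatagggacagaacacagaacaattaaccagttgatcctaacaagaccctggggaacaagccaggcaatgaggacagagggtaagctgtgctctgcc
Hsh2d, chr8:72189418-72189667, plus strand: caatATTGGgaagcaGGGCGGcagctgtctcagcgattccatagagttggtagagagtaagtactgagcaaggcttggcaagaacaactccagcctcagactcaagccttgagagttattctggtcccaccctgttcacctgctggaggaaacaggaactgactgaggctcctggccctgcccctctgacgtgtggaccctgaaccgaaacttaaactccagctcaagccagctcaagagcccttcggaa

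Over the 250 bases before the start, the Cyp4f18 window held 2 CCAAT matches, both as ATTGG, at 113 to 109 and 48 to 44 bases before the start, and 1 GGGCGG match, as CCGCCC, at 106 to 101 bases. The Hsh2d window held 1 CCAAT match and 1 GGGCGG match, at 246 to 242 and 235 to 230 bases before the start. The Olfr374 and Cib3 windows held none of the 4 motifs. Among all 32851 promoters of the same table and length, 33.8% held CCAAT, 32.7% GGGCGG, 12.4% TATAAA and 6.02% CACGTG. The motifs do not overlap each other in these windows. CpG dinucleotides were few: 3 in Cyp4f18, 0 in Olfr374, 5 in Hsh2d and 3 in Cib3, against a median of 6 over all promoters. The observed over expected CpG ratio was 0.166, 0, 0.275 and 0.165 in that order, where the median promoter had 0.374. The GC share was 54%, 50.4%, 54% and 55.2%, close to the median of 52.4%. A match is a description of the letters and not of a bound factor.

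Alone, the 4 promoters drove little reporter activity. Activity is the authors' ratio of cDNA to pDNA barcodes, a linear scale on which a larger value means more reporter RNA per plasmid. The other 38 oriented promoters of the locus had a median of 0.774, with the Smim7 and Tmem38a fragment P022+ highest at 18.6 and the P005- fragment nearest to Olfr372 lowest at 0.0742. The 8 oriented members lay between 0.0973 and 0.333 (geometric mean over 3 replicates), at ranks 23 to 41 of the 46 oriented promoters. The median cCRE alone, the background used here, had 0.122, 0.0631 and 0.249 in replicates 1, 2 and 3. This background was lowest in replicate 2 and highest in replicate 3, and the weak members moved with it.

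The Olfr374 fragment in - was the strongest member, at 0.320, 0.276 and 0.416 in the 3 replicates. In + the same fragment gave 0.0995, 0.0405 and 0.229, the lowest mean of the 8, so its higher orientation was antisense to the gene. All 3 values in - lay above the median cCRE of the same replicate, and all 3 in + below it. The Hsh2d fragment in + gave 0.217, 0.161 and 0.373 and in - 0.100, 0.0551 and 0.236. For Hsh2d the sense orientation was the higher in every replicate. The Cyp4f18 fragment gave 0.182, 0.0931 and 0.296 in + and 0.114, 0.0632 and 0.220 in -. The Cib3 fragment gave 0.0918, 0.0482 and 0.235 in + and 0.129, 0.0984 and 0.275 in -.

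None of the 8 passed limma against the median cCRE alone (Benjamini-Hochberg adjusted over 207 oriented single fragments, 13.5% of which were called), and none had an unadjusted p under 0.05. The lowest adjusted p was 0.377, for Olfr374 -, at a log2 difference of 1.42 ± 0.812 (SE). The fit gave this same SE to all 8, and it includes the shift of the background between replicates. The unpaired test can therefore miss differences that hold within each replicate. The replicate as a block sets each value against the background of its own transfection. With it, Olfr374 - (SE 0.309, adjusted p = 0.0385) and Hsh2d + (log2 difference 0.92, adjusted p = 0.0411) were called, beside 26.1% of all single fragments. After quantile normalization between replicates 5 of the 8 were called, beside 59.9% of all: Olfr374 -, Hsh2d + and Cyp4f18 + as higher and Olfr374 + and Cib3 + as lower. In the order of levels, Olfr374 - lay above Hsh2d + by 0.50 ± 0.31 (log2, SD, n = 3) and Hsh2d + above Cyp4f18 + by 0.46 ± 0.29, each in 3 of 3 replicates. Cib3 - lay above Cyp4f18 - by 0.38 ± 0.23. The other neighbours in that order differed by 0.06 to 0.17, about as much as or less than their spread of 0.09 to 0.29.

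With a cCRE before them, few members rose. In the fit without the replicate block, all 8 called rises were with E007 or E097. E007+ raised 4 of the 8 oriented members, E097- raised 2 of 8 and E097+ both of those it was measured with. Over the 669 cCRE constructs without a replicate at 0, the median log2 change against the member alone was -0.26, beside -0.29 over the 3016 cCRE constructs of the other promoters. Limma, adjusted over all 19089 pairs of the locus, called 8 constructs higher and 0 lower. Over all cCRE and promoter pairs 2.04% were called higher and 1.52% lower, so the 8 of 669 are below that background. For the count of 0 lower, 16 constructs had an unadjusted p under 0.05. With the replicate block the counts were 17 higher and 3 lower (3.77% and 5.7% of all such pairs), and after quantile normalization 50 higher and 97 lower (9.34% and 28%), so that lower calls outnumbered higher ones. The 17 include rises of Hsh2d and Cib3 after cCREs other than E007 and E097, which are not named here. With replicate 1, 2 or 3 left out the higher calls were 0 (7 at an unadjusted p under 0.05), 1 and 4. All constructs that share a member and strand are set against the same 3 values of that member alone.

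E007, at chr8:71922525-71922975 within Zfp617, was the most active cCRE alone, at 8.61 in +, and had 1.77 in -. Before Hsh2d + it gave 3.22, 3.81 and 3.16, against 0.217, 0.161 and 0.373 for Hsh2d + alone. That is a log2 change of 3.85 ± 0.400 (SE, adjusted p = 0.00882). The groups do not overlap, and this was the largest rise that any cCRE gave a member. Before Hsh2d - it gave 1.13, 1.33 and 1.45, a change of 3.57 ± 0.575 (adjusted p = 0.0220). Before Cyp4f18 + it gave 1.84, 1.28 and 1.56 (3.17 ± 0.495, adjusted p = 0.0200), and before Cyp4f18 - 0.551, 0.798 and 0.884 (2.65 ± 0.533, adjusted p = 0.0395). With Olfr374 and Cib3 E007+ did not pass the test. Its log2 change was 1.79 with Olfr374 + (adjusted p = 0.216), 0.45 with Olfr374 - (0.721), 2.44 with Cib3 + (0.0952) and 1.70 with Cib3 - (0.0883). With the replicate block Cib3 + passed as well (adjusted p = 0.0336), and with Olfr374 neither orientation did. E007+ raised 26 of the 37 other oriented promoters it was measured with, at a median log2 change of 2.16, beside 2.54 over the 8 members.

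E097, at chr8:72676845-72677295 within Nwd1, had 2.09 alone in + and 1.06 in -. In + it was measured with 2 oriented members, and both were called. Cib3 - rose from 0.129, 0.0984 and 0.275 alone to 2.14, 1.63 and 1.64 (3.56 ± 0.464, adjusted p = 0.0129). Olfr374 - rose from 0.320, 0.276 and 0.416 to 0.872, 1.06 and 1.13 (1.61 ± 0.313, adjusted p = 0.0358). Without the replicate block this was the only called rise of Olfr374 with a cCRE. In - E097 raised Hsh2d + to 2.18, 1.64 and 1.68 (2.95 ± 0.408, adjusted p = 0.0150) and Cyp4f18 + to 1.15, 0.735 and 1.03 (2.48 ± 0.506, adjusted p = 0.0407). The 6 other pairs of E097- did not pass, with log2 changes from 0.03 with Olfr374 - to 2.61 with Hsh2d -. With the replicate block 3 of those 6 passed, those with Cyp4f18 -, Olfr374 + and Hsh2d - (adjusted p = 0.0418, 0.0443 and 0.0389).

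Olfr374 - had the lowest median log2 change with a cCRE before it. Its median construct with cCREs gave 0.148, 0.0862 and 0.278 over 93 cCREs, against 0.320, 0.276 and 0.416 alone, below its own value in every replicate. The median log2 change was -1.09, with 3 of the 93 called lower with the replicate block and 52 after quantile normalization, and 0 in the unblocked fit. For the other 7 oriented members the median change lay between -0.37 and 0.04. Hsh2d + kept the highest level with cCREs, at 0.196, 0.138 and 0.357 over 97 cCREs.

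The cCREs nearest to each gene gave no calls. Within 50 kb of the fragment's position lay 9 cCREs for Cyp4f18, 7 for Olfr374, 9 for Hsh2d and 9 for Cib3, measured in 14, 10, 18 and 18 constructs. None of the 60 constructs was called (limma; 1 had an unadjusted p under 0.05). With 2.04% of all cCRE and promoter pairs called higher and 1.52% lower, a count of 0 of 60 is near the background. Their median log2 change was -0.42, -0.60, -0.44 and -0.29, beside -0.27, -0.53, -0.07 and -0.23 for the cCREs farther away. The highest was Cib3 - after E035+, with 0.174, 0.158 and 0.317 (log2 change 0.44, adjusted p = 0.874).

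The effect of a cCRE was compared between members as the boost index, a log2 value that sets a construct against the median of all cCRE constructs of that oriented promoter. Of 1682 matches of an oriented cCRE measured with 2 different members, 1 was called, where 2.59% of all 60653 promoter matches were, and 165 had an unadjusted p under 0.05. It was E057+, which lies nearest to Klf2 and had 0.564 alone. Its boost index was -0.14, 0.11 and -0.06 with Olfr374 + and 1.62, 1.80 and 1.03 with Hsh2d +. The difference of -1.51 ± 0.230 (SE, adjusted p = 0.0450) was in the same direction in 3 of 3 replicates. It was not called with the replicate block (adjusted p = 0.154), under which 0 of all 60653 matches passed, nor without replicate 1, 2 or 3. Quantile normalization called 96 of the 1682.

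By boost index over the oriented cCREs, the profile of Hsh2d was most like that of the Klf2 promoter fragment P016 (mean Pearson r over 4 orientation pairs 0.832, 49 to 60 shared cCREs), followed by P024 at Nwd1 (0.789) and P008, nearest to Tpm4 (0.749). Cyp4f18 was most like Hsh2d (0.692, 61 to 77 shared cCREs), P024 (0.656) and P025 at Sin3b (0.649). Cib3 was most like Hsh2d (0.619, 52 to 92 shared cCREs), P024 (0.618) and P008 (0.616). Olfr374 reached 0.545 with P008, 0.532 with Cib3 and 0.502 with P012. The points share the transfections and the cCRE fragments, and these correlations are a description.

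A promoter before a member raised it about as often as promoters raised each other over the whole locus. Of 244 constructs, 43 of them with a member in both positions, 46 were called higher and 0 lower (limma; 5 lower at an unadjusted p under 0.05), where over all promoter pairs 16.1% were called higher and 1.21% lower, so the members' share is near the background. By member, 23 of 72 constructs of Hsh2d were called, 12 of 52 of Cyp4f18, 7 of 54 of Cib3 and 4 of 66 of Olfr374. The replicate block gave 66 higher and 4 lower (23.1% and 5.32%), and quantile normalization 105 and 20 (38.3% and 17.3%). Leaving out replicate 1, 2 or 3, the higher calls were 0 (45 at an unadjusted p under 0.05), 8 and 35. Nearly all calls came with a first promoter that was itself active. Where it had an activity of at least 1 alone, 45 of 119 constructs were called, at a median log2 change of 1.79. Where it had less, 1 of 125 was called, at a median of -0.32. This split was not made for the other promoters, so it shows nothing particular to the members. Among the other promoters, 166 of 851 pairs of all strengths were called higher.

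P022+, the most active promoter fragment, which lies at Smim7 and Tmem38a, was called with all 8 oriented members. Before Hsh2d - it gave 5.73, 6.02 and 4.87 against 0.100, 0.0551 and 0.236 alone, the largest change of any member construct (log2 5.66 ± 0.574, adjusted p = 0.0087, 50.5-fold). Before Cib3 - it gave 5.97, 6.07 and 4.96 (5.21 ± 0.458, adjusted p = 0.0081). Before Olfr374 - it gave 1.85, 1.89 and 1.66 (2.44 ± 0.302, adjusted p = 0.0111), the smallest of the 8 log2 changes. P017+ at Eps15l1 was also called with all 8, with activities from 0.937 to 4.11. After P022+ and P017+ the members reached between 0.937 and 5.64, less than these fragments gave alone. After other active promoters some members stayed lower, down to 0.132 after P014+ (6.16 alone) and 0.162 after P021+ (7.92 alone).

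The 1 call with a weak first promoter was P002+, at Zfp882 (0.165 alone), before Cyp4f18 -. The construct gave 1.29, 1.53 and 0.921 against 0.114, 0.0632 and 0.220 for Cyp4f18 - alone (log2 change 3.39 ± 0.535, adjusted p = 0.0206). P002+ before Cyp4f18 + gave 0.153, 0.158 and 0.405, and Cyp4f18 - before P002+ gave 0.0565, 0.0636 and 0.255. The high value was seen in 1 order and 1 orientation of these fragments. The number of barcodes behind it is unknown.

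Placed first, before another promoter, the members raised none and Cyp4f18 lowered many. Over 265 constructs, 0 were called higher (1 at an unadjusted p under 0.05) and 15 lower, and all 15 were of Cyp4f18. The background over all promoter pairs was 16.1% higher and 1.21% lower. Of the 1052 constructs with another promoter first, 212 were called higher and 1 lower. Cyp4f18 was called lower in 15 of its 57 constructs, 5 of 23 in + and 10 of 34 in -. With the replicate block the counts over all 4 members were 1 higher and 51 lower, where 23.1% and 5.32% of all promoter pairs were called. Of those lower calls 28 were of Cyp4f18, 10 of Olfr374, 8 of Hsh2d and 5 of Cib3. Quantile normalization gave 5 higher and 113 lower, beside 38.3% and 17.3% of all, and the lower calls were 36 of Cyp4f18, 31 of Olfr374, 28 of Hsh2d and 18 of Cib3. Against the median construct in place of the second promoter alone, 1 was higher and 38 lower. Without replicate 1, 2 or 3 the lower calls were 0 each time, with 8, 20 and 68 at an unadjusted p under 0.05.

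The largest decreases were before P017-, at Eps15l1. P017- alone gave 2.20, 2.21 and 2.13. After Cyp4f18 - it gave 0.378, 0.461 and 0.494 (log2 change -2.30 ± 0.279, adjusted p = 0.0107, 4.94-fold lower) and after Cyp4f18 + 0.450, 0.526 and 0.397 (-2.26 ± 0.279, adjusted p = 0.0115). P019- at Cherp gave 4.71, 4.54 and 4.09 alone and 1.14, 1.05 and 0.966 after Cyp4f18 - (-2.08 ± 0.272, adjusted p = 0.0131). P016+, the promoter of Klf2 itself, gave 1.37, 1.20 and 1.49 alone and 0.403, 0.440 and 0.598 after Cyp4f18 - (-1.51 ± 0.308, adjusted p = 0.0408). In each of these the values do not overlap. The 15 decreases ranged from -1.27 to -2.30 and concerned promoters of Zfp882, Zfp961, Rab8a, Ap1m1, Klf2, Eps15l1, Calr3, Cherp and Med26.

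All 15 had a second promoter with an activity of at least 1 alone. There were 29 such constructs with Cyp4f18 first, and all 29 had a negative log2 change, from -0.93 to -2.30, with a median of -1.44. With a second promoter under 1, 24 of 28 were negative, the median was -0.70 and 0 were called (limma, 3 at an unadjusted p under 0.05). Many of these second promoters lay near the median cCRE alone, where little decrease can be measured. The split was not made for other first fragments, so it does not show that Cyp4f18 acts more on active promoters.

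A cCRE before a promoter also gave a median log2 change of -0.28 over all such pairs, so Cyp4f18 was also set against the cCREs before the same promoters. Its median construct lay 0.81 ± 0.17 (log2, SD, n = 3 replicates) below the median cCRE construct, and 52 of 57 constructs lay below it. The same difference was -0.36 ± 0.10 for Olfr374, -0.19 ± 0.07 for Hsh2d and -0.04 ± 0.06 for Cib3. In a direct test of the first fragment before the same second promoter, Cyp4f18 was lower than Olfr374 in 25 of 106 matches, than Hsh2d in 28 of 104 and than Cib3 in 36 of 95, and higher in 0 of them (limma, adjusted over all matches of the locus, of which 46.7% with a promoter second were called). For the count of 0 higher, the replicate block called 1 and quantile normalization 4. These 89 of 305 became 0 without replicate 1 (27 at an unadjusted p under 0.05), 19 without replicate 2 and 65 without replicate 3. The 3 other members were tested against each other in 349 matches. Olfr374 was lower than Cib3 in 12 of 108 and higher in 0 (4 with the replicate block). Hsh2d was lower than Cib3 in 11 of 115 and higher in 1. Olfr374 was lower than Hsh2d in 2 of 126 and higher in 1. This test was added after the calls had been seen.

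Before cCREs the members did little as a class. Of 762 constructs, 5 were called higher and 4 lower, where 20.1% of all promoter and cCRE pairs were called higher and 0.229% lower. The replicate block gave 9 higher and 23 lower (27.3% and 1.3% of all such pairs), and quantile normalization 54 and 117 (48.5% and 6.51%). When replicate 1, 2 or 3 was left out the calls were 0, 0 and 4, with 7 and 18 at an unadjusted p under 0.05 behind the counts of 0. All 4 decreases were again of Cyp4f18. It took E007- from 1.79, 1.81 and 1.72 alone to 0.218, 0.449 and 0.509 in + (-2.27 ± 0.411, adjusted p = 0.0297) and to 0.420, 0.570 and 0.646 in - (-1.72 ± 0.303, adjusted p = 0.0277). Of the 153 other first fragments measured before E007-, 152 gave more activity than Cyp4f18 + and 149 more than Cyp4f18 -. E030- fell by 2.06 on the log2 scale after Cyp4f18 + (adjusted p = 0.0476) and E097+ by 1.84 after Cyp4f18 - (adjusted p = 0.0440). In the direct test before cCREs, Cyp4f18 was lower than the other members in 30 of 827 matches and higher in 2, where 44.1% of all matches were called.

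The 5 rises were 1 of Olfr374, 1 of Hsh2d and 3 of Cib3. The other strand of the member was measured before the same cCRE for Olfr374 and Hsh2d, and has no value for the 3 rises of Cib3. Olfr374 - before E096-, a cCRE at Nwd1, gave 2.17, 2.39 and 1.91, while E096- alone gave 0.0950, 0.0497 and 0.239 (4.37 ± 0.609, adjusted p = 0.0152). Olfr374 + before the same cCRE gave 0.176 as a geometric mean, and none of the 80 other first fragments reached more than 0.883. Hsh2d + before E020+, a cCRE within Cyp4f18, gave 1.41, 1.29 and 1.36 against 0.101, 0.0446 and 0.230 (3.74 ± 0.625, adjusted p = 0.0242), and Hsh2d - before it 0.214. Cib3 + before E011-, at Zfp961, gave between 11.1 and 12.7 in the 3 replicates, against 1.67, 1.65 and 1.79 for E011- alone (2.81 ± 0.267, adjusted p = 0.0081). The 37 other first fragments there had a median of 1.67 and reached at most 6.62. Cib3 + was also called before E009+ (3.17, adjusted p = 0.0480) and before E097- (1.76, adjusted p = 0.0285). Before E009+ 12 of the 71 other first fragments gave more, and before E097- 3 of 36. The number of barcodes behind each construct is unknown.

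With members in both positions, activity was low. The 43 constructs without a replicate at 0 ranged from 0.0499 to 0.416 with a median of 0.120, and 0 were called by limma (1 at an unadjusted p under 0.05), where 16.1% of all promoter pairs were called higher and 1.21% lower. The replicate block called 2, both lower (Cib3 + before Olfr374 - and Cib3 - before Hsh2d +), beside 23.1% higher and 5.32% lower of all.

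Next to the reporter, Hsh2d was higher in + with most first fragments. Over 92 cCREs measured before both orientations, Hsh2d + exceeded Hsh2d - by a median of 0.88 (log2), with 86 of 92 positive, and over 34 promoters by 1.09, with 33 of 34 positive. Limma called 3 and 7 of these, all higher in +. Over all promoters 29% of cCRE matches were called, 27.3% higher and 1.75% lower in +, and 31.9% of promoter matches, 29.6% higher and 2.33% lower. For example, E007+ before Hsh2d gave 3.22, 3.81 and 3.16 in + and 1.13, 1.33 and 1.45 in - (1.39 ± 0.250, adjusted p = 0.0228). P009+, the Rab8a promoter, gave 0.799, 0.874 and 1.12 in + and 0.126, 0.165 and 0.301 in - (2.32 ± 0.403, adjusted p = 0.0207). For Olfr374 the - orientation was the higher, as it was alone, with a median + minus - difference of -0.79 over 78 cCREs and -0.66 over 32 promoters. One of these was called, P021-, at Med26, with 0.352, 0.221 and 0.273 in + and 0.992, 0.616 and 0.771 in - (-1.49 ± 0.323, adjusted p = 0.0398). Cyp4f18 was higher in + by a median of 0.65 over 60 cCREs, with 0 called (limma; 2 at an unadjusted p under 0.05, 1 with the replicate block, 5 after quantile normalization), and by 0.73 over 22 promoters. Its 1 called match went the other way: P002+ gave 0.153, 0.158 and 0.405 with Cyp4f18 + and 1.29, 1.53 and 0.921 with Cyp4f18 - (-2.51 ± 0.483, adjusted p = 0.0279, and 0.0509 with the replicate block). Cib3 had medians of -0.24 over 53 cCREs and -0.08 over 16 promoters. Its 1 called match was higher in +, with P021+ (1.38 ± 0.289, adjusted p = 0.0359). Over the 4 members 13 matches were called, 11 higher in + and 2 in -, 39 with the replicate block (36.5% of all cCRE and 40% of all promoter matches), and 75 and 29 after quantile normalization. Without any 1 replicate the count was 0, with 7, 21 and 67 at an unadjusted p under 0.05. Matches of 1 member share its fragment, so they are not independent.

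Swapping the order of a member and another promoter changed activity about as often as for promoters in general. Of 161 matches 75 were called, near the background of 44.4% of all promoter matches, and 74 of the 75 were lower with the member next to the reporter. That background counts both directions, so it gives no comparison for the direction. Many partners, such as P017+ at 14.0, were far more active alone than any member, at most 0.333. How far the direction follows from these levels was not tested. By member, including matches between members, 28 of 50 were lower for Olfr374, 19 of 38 for Cib3, 16 of 62 for Hsh2d and 11 of 30 for Cyp4f18. The largest difference was that of P014+, at Ap1m1, and Olfr374 +, chosen after its values were seen. P014+ before Olfr374 + gave 0.107, 0.0822 and 0.260, and Olfr374 + before P014+ gave 4.08, 4.89 and 4.73 (log2 difference -5.11 ± 0.483, adjusted p = 0.00181). The 1 match higher with the member next to the reporter was P002+ with Cyp4f18 -, at 3.65 (adjusted p = 0.0108). With replicate 1, 2 or 3 removed the calls were 0 (55 at an unadjusted p under 0.05), 23 and 53. With cCREs, the order made a called difference in 7 of 480 matches, 3 higher and 4 lower with the member next to the reporter, where 44.2% of all cCRE and promoter matches were called. The replicate block called 26 of these (48.6% of all) and quantile normalization 83, with 49 higher and 34 lower. Without replicate 1, 2 or 3 the calls were 0 (4 at an unadjusted p under 0.05), 1 and 14.

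The Downstream assay, with its own libraries and transfections, is independent of the Upstream values. In it each member was an insert with 11 vectors, 10 carrying a promoter of the Klf2 locus and 1 labelled NoP, and it was set against the mean of the shuffled and random control inserts of the same vector. Cyp4f18 was lower than the controls in 18 of 22 constructs and higher in 0 of them (also 0 at an unadjusted p under 0.05), and all 22 differences were negative. Its median of -0.71 (log2) was the lowest of the 23 promoter inserts, and lower than the median of each of the 20 control inserts, which ranged from -0.55 to 0.49. Over all promoter inserts 42.8% were called higher and 12.7% lower. Without replicate 1, 2 or 3 the lower calls were 19, 12 and 13.

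With the NoP vector, the control inserts gave 0.0811, 0.125 and 0.107 and Cyp4f18 - gave 0.0361, 0.0351 and 0.0382 (-1.50 ± 0.159, adjusted p = 0.000144). With the P014 vector the controls gave 1.23, 1.15 and 1.04 and Cyp4f18 - gave 0.531, 0.471 and 0.465 (-1.22 ± 0.115, adjusted p = 0.000101). With the Klf2 promoter vector P016 the controls gave 0.629, 1.06 and 0.899, Cyp4f18 - gave 0.291, 0.407 and 0.370 (-1.26 ± 0.203, adjusted p = 0.00111) and Cyp4f18 + gave 0.377, 0.674 and 0.577 (-0.67 ± 0.245, adjusted p = 0.0454). The values with Cyp4f18 in + and the controls overlap there, and those in - do not. In both orientations the decrease with the NoP vector was larger in size than with any of the promoter vectors, a difference that was not tested.

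In the unblocked fit the 3 other members were called less often than promoter inserts in general, of which 55.5% were called in either direction. Olfr374 was called higher in 7 of 22 constructs and Cib3 in 5 of 22, with 0 lower for either (limma; 0 and 1 at an unadjusted p under 0.05, and 3 and 4 with the replicate block), and Hsh2d in 1 higher and 2 lower. The largest rise was that of Cib3 + with the P001 vector, at 0.330, 0.362 and 0.457 against 0.142, 0.177 and 0.207 for the controls (1.13 ± 0.171, adjusted p = 0.000807). Olfr374 - with the same vector gave 0.260, 0.280 and 0.322 (0.72 ± 0.155, adjusted p = 0.00453). Hsh2d was lower with the P014 vector in both orientations, with log2 differences of -0.45 in + and -0.32 in - (adjusted p = 0.0129 and 0.0490). Over these 3 members 15 of 66 were called, and 50 with the replicate block, 33 higher and 17 lower (84.4% of all promoter inserts were called, 59% higher and 25.5% lower). They were 18, 7 and 9 when replicate 1, 2 or 3 was left out. Against the vector without an insert, 0 of the 66 were called higher and 26 lower. The share over all promoter inserts on this baseline was not taken. The controls also lay under the vector alone, which gave 0.299, 0.368 and 0.394 for P001. The rise of Cib3 + with P001 thus ended near the level of the vector itself. In the direct test between inserts of the same vector, Cyp4f18 was lower than Olfr374 in 42 of 44 matches, than Hsh2d in 37 of 44 and than Cib3 in 42 of 44, and higher in 0 of them also with the replicate block (limma, adjusted over 9311 matches, of which 66.6% were called). This test was added after the data were seen and uses the same Downstream values. Its matches share inserts, so they are not independent.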

How the data were processed

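Activities were deposited by the authors for each construct and replicate as the ratio of barcodes in cDNA over plasmid DNA, and boost indices as log2 values. The column names used give the measure and the replicate, and not the ratio or the scale. The submitters' processing notes name Bowtie2 and mm10. The tables used give no barcode numbers, so depth is unknown and the planned minimum of 10 barcodes was not run. The deposited boost index was recomputed within 0.001 for 3685 of 3685 constructs.

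Log2 activities of 3 replicates were compared with limma 3.58.1 in R 4.3.3, Benjamini-Hochberg adjusted at 0.05 over the whole locus. Pairs were set against the second fragment alone, whose values all its pairs share and which came from a separate library of single fragments. Constructs with any replicate at 0 (55 of the members') did not enter the fits. Pairs also needed values above 0 for the second fragment alone. Of 770 constructs with a member before a cCRE and no replicate at 0, 762 were therefore tested. Values with 1 replicate number come from the same transfected cells, so the numbers pair the values. Deviations from the group means correlated at 0.0325, 0.446 and 0.572 in replicates 1, 2 and 3 over all pairs. Over the constructs with a member as second fragment they correlated at 0.0870, 0.184 and 0.227. Replicates share the plasmid pool, so p-values measure the spread between transfections.

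Named constructs are the called ones and, for likeness, the 3 highest. The members and lists were chosen with earlier results of these data known. The tests between first fragments and between inserts were added after the data were seen. Another 9 per-replicate columns were not used. The fits were tested on simulated data. Alternatives were the replicate block, leaving out each replicate, quantile normalization, zeros kept as log2 of activity + 0.01, an activity minimum of 0.05 and other baselines.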

Additional observations from a re-analysis of the deposited data

Results flagged for a closer look

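E057+ had a lower boost index with Olfr374 + than with Hsh2d +, by a log2 difference of -1.51. It was the 1 difference between members that limma called, of 1682 matches, where 2.59% of all 60653 promoter matches were called. The call was lost with the replicate block (limma, adjusted p = 0.154) and when any 1 replicate was left out. Cyp4f18 before a promoter was lower than the other members in 89 of 305 matches, by the direct test between first fragments. That share is below the 46.7% called over all such matches of the locus, and without replicate 1 the count was 0 (27 at an unadjusted p under 0.05, limma). Cyp4f18 as a Downstream insert was lower than the other members in 121 of 132 matches, by the direct test between inserts, where 66.6% of all insert matches were called in either direction.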

How the results depend on the processing

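Of 155 alternatives to the main counts and levels, 102 were labelled close and 53 moved. A count was close if it equalled the main one, also at 0, or was of similar size. A level was close if it shifted by less than its SD between replicates (log2, 0.69 to 1.34). That margin is wide, so the number labelled close is no measure of stability. The replicate block, which pairs values of 1 transfection, called 2 single members, 17 higher and 3 lower members after cCREs, 1 higher and 51 lower promoters after a member, 32 cCREs after a member, 39 orientation matches, 26 order matches with cCREs, 0 cCRE differences between members and 50 Downstream inserts of Olfr374, Hsh2d and Cib3; it ended the call of E057+ and that of the orientation of Cyp4f18 after P002+, and no other call of a named pair, orientation or insert. Quantile normalization gave 5, 50 and 97, 105 promoters before a member, 5 and 113, 171, 104, 83, 96 and, for Cyp4f18 first against the others, 153. With cCRE then promoter constructs only, 13 were higher and 1 lower; with the median construct as baseline, 1 promoter after a member was higher and 38 lower; with zeros kept, 2 differences between members were called; against the vector alone, 26 inserts. Leaving out 1 replicate gave 0 to 0 single members, 0 to 4 higher and 0 to 0 lower after cCREs, 0 to 35 after promoters, 0 to 0 promoters higher or lower after a member, 0 to 4 cCREs after a member, 0 to 0 orientation matches, 0 to 14 and 0 to 53 order matches, 0 to 0 differences between members, 12 to 19 Cyp4f18 inserts, 7 to 18 other inserts, 0 to 65 first-fragment and 106 to 127 insert matches. Levels with cCREs ranged over 0.112 to 0.204 and 0.0627 to 0.147 for Cyp4f18 + and -, 0.0560 to 0.145 and 0.117 to 0.212 for Olfr374, 0.157 to 0.255 and 0.0758 to 0.168 for Hsh2d, and 0.0670 to 0.148 and 0.0822 to 0.177 for Cib3. Cib3 - alone turned to -0.025 against the mean cCRE. Against the vector alone, Olfr374 + turned to -0.30 (P001), -0.11 (P009) and -0.081 (P022), Olfr374 - to -0.29 (P001), -0.39 (P009), -0.27 (P021) and -0.19 (P022), Hsh2d + to -0.28 (P022), and Cib3 - to -0.034 (P001), -0.46 (P009) and -0.086 (P021). With 2 replicates there are fewer samples; the cause of the other moves was not tested. The minimum of 10 barcodes was not run, and depth is unknown.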
